A study of Gallus gallus with 6 samples.

Results

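Expression of 10 genes of B cell identity and B cell receptor signalling was read from a table of 17623 genes measured by RNA sequencing in chicken ileum. The 10 genes are PAX5, EBF1, BLNK, BTK, CD79B, BCL6, IKZF3, POU2AF1, SWAP70 and CD72. They were taken by gene symbol, and each symbol had 1 row in the table. The ileum is the last part of the small intestine, and the birds were male Taiping chickens aged 2 months. The control group (CT) ate a basal diet of corn and soybean and received 0 mL of probiotic per litre of water. The probiotic group (MP) received the same basal diet with 2 mL of probiotic per litre of drinking water. The labels give 3 libraries per group and do not name the organisms in the probiotic, the length of the treatment or the part of the ileum taken.

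B cells recognise antigen with a surface immunoglobulin that signals through the partner chains CD79A and CD79B. Kinases phosphorylate these chains, the adaptor BLNK gathers BTK and phospholipase C on them, and calcium and NF-kB signals follow. The transcription factors EBF1 and PAX5 switch on and hold the B cell programme, which plasma cells later shut down. In chickens, B cells mature in the bursa of Fabricius and seed lymphoid tissue along the gut, and part of them become plasma cells that secrete IgA.

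The authors deposited FPKM (fragments scaled to transcript length and to sequencing depth) and estimated counts as 1 mean per group. The spread between birds was therefore not analysed here, no p-value is given, and every difference below lacks a replicate check. Mean counts per library summed to 17150865 in CT and 15928865 in MP. Intervals are exact 95% Clopper-Pearson intervals of the depth-scaled ratio of summed counts. They cover counting error only, and variation between birds is not in them. Each counted fragment is treated as a separate molecule, so any PCR copies among the counts would make the intervals too narrow.

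Most of the B cell genes lay close to the control level in the probiotic group, and EBF1 and IKZF3 lay outside the quartiles of all genes (below). Of the 10 genes, 8 were lower and 2 were higher in the MP mean, beside 62.2% lower among all 12828 genes that reached FPKM 1 in CT or MP. All 10 passed that minimum in both groups. The median difference of the 10 genes was -0.09 in log2(FPKM + 1), MP minus CT, and that of all genes compared was -0.07. Of the 10 genes, 8 lay between the lower and the upper quartile of all genes, -0.21 and 0.10, while EBF1 and IKZF3 lay below it. At a threshold of 0.32 in log2 on this scale, a ratio of 5 to 4, 1 of the 10 genes (EBF1) was lower, against 11.2% of all genes, and 0 were higher, against 8.49%. At 1.5-fold on this scale, 0 of the 10 were lower and 0 higher, against 1.97% and 2.87% of all genes. The added 1 shrinks the difference of a gene as low as EBF1: with no pseudocount, 1 of the 10 (EBF1, FPKM ratio 0.588) was at least 1.5-fold lower, against 4.53% of all genes. These shares of the 10 genes do not stand apart from the background.

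**Figure D1:**
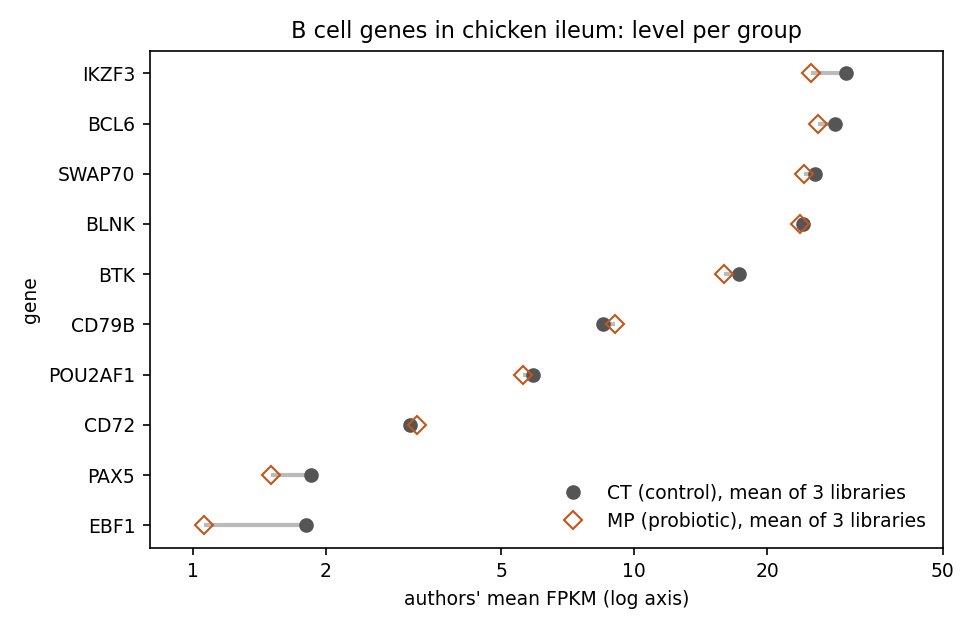
Authors' mean FPKM of each B cell gene (log axis) in CT (filled circles) and MP (open diamonds), each the mean of 3 libraries with no error available. The genes span from 1.81 (EBF1) to 30.2 (IKZF3) in CT, and the largest gaps between the groups are those of EBF1 and PAX5.

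The receptor genes were the 2 that lay higher in MP. CD79B (ENSGALG00000000251), the signalling chain of the B cell receptor, had FPKM 8.51 in CT and 9.04 in MP. Its mean counts were 307 and 306.7, and after scaling to depth the ratio was 1.08 with an interval of 0.981 to 1.18. CD72 (ENSGALG00000005194) encodes a surface lectin that in mammals dampens receptor signalling through the phosphatase PTPN6. CD72 had FPKM 3.11 in CT and 3.23 in MP, from mean counts of 88.0 and 84.7. Its count ratio of 1.04 had an interval of 0.869 to 1.24, so that neither receptor gene differed from equality beyond counting error. The median count ratio of all genes compared was 0.950. The CD79B interval lay wholly above that median, and the CD72 interval held it. With FPKM totals set equal between the groups, CD72 turned to -0.005 in log2, below CT.

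The cytoplasmic signalling genes were higher in level and slightly lower in MP. BLNK (ENSGALG00000006973), the adaptor that links the receptor to phospholipase C, had FPKM 24.1 in CT and 23.7 in MP. The count ratio of BLNK was 0.985, with an interval of 0.935 to 1.04, and its direction turned to higher under median-of-ratios scaling (0.05 in log2) and upper-quartile scaling (0.03). BTK (ENSGALG00000004958), the Tec-family kinase that activates phospholipase C, had FPKM 17.3 in CT and 16.0 in MP. Its count ratio was 0.927 (0.870 to 0.987). BTK and BLNK are also used by myeloid cells in mammals.

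SWAP70 (ENSGALG00000005750) binds actin and phosphoinositides and was first described in mammalian B cells undergoing class switching. Its FPKM was 25.6 in CT and 24.2 in MP. The largest counts among the 10 genes were those of SWAP70, 5035 in CT and 4421 in MP over the 3 libraries, and its count ratio of 0.945 had the narrow interval of 0.908 to 0.985. The median count ratio of all genes compared was 0.950, which lies inside the intervals of both SWAP70 and BTK. The counts thus place both genes below CT by about as much as the median gene.

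Among the transcriptional regulators, only IKZF3 and EBF1 lay below the lower quartile of all genes compared. IKZF3 (ENSGALG00000013481), the Ikaros-family factor Aiolos of B, T and natural killer cells, had FPKM 30.2 in CT and 25.1 in MP. The IKZF3 counts summed to 3906 in CT and 2944 in MP, a ratio of 0.812 (0.773 to 0.852). Its log2 difference was -0.26, and 17.8% of the genes compared had a lower one. IKZF3 had the highest level of the 10 genes in CT and the second highest in MP.

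BCL6 (ENSGALG00000007357), the repressor that directs germinal centre B cells and follicular helper T cells, had FPKM 28.5 in CT and 26.0 in MP. Its count ratio was 0.916, with an interval of 0.873 to 0.961 that holds the median of all genes. POU2AF1 (ENSGALG00000006809), the coactivator OBF-1 of octamer-binding factors, had FPKM 5.89 in CT and 5.59 in MP. The POU2AF1 count ratio of 0.949 (0.859 to 1.05) did not differ from equality beyond counting error, and under median-of-ratios scaling its log2 difference was 0.0008.

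EBF1 (ENSGALG00000003699), which starts the B cell programme together with other factors, had the widest gap between the groups and the lowest level of the 10 genes. Its FPKM was 1.81 in CT and 1.06 in MP, just above the minimum of 1, from counts of 178 and 100 over the 3 libraries. The count ratio was 0.605, and its interval of 0.469 to 0.777 overlapped that of no other B cell gene except the lower end of the IKZF3 interval. On the log2(FPKM + 1) scale the EBF1 difference was -0.44, with a lower value in 4.95% of the genes compared. With a pseudocount of 5 the difference shrank to -0.17, and with no pseudocount it was -0.77. EBF1 is also expressed in fibroblasts, vessel wall and fat cells of mammals. Markers of fibroblasts and vessels were lower in MP as well (below), and fat cell markers were not analysed here. A link of either to the EBF1 difference was not tested.

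PAX5 (ENSGALG00000016431), the factor that keeps B cells committed, gave different sizes by FPKM and by count. Its FPKM was 1.85 in CT and 1.503 in MP, a ratio of 0.811. Its mean counts were 117.3 and 101.7, a depth-scaled ratio of 0.933 with an interval of 0.798 to 1.09. The gap between both ratios was -0.20 in log2, and 50 of 12826 genes with values in both groups, PAX5 among them, had one at least as wide. Among the other members the widest such gap was 0.04, and the median over all genes was 0.007. The PAX5 count interval held 1. FPKM carries the authors' scaling of each library and of transcript length, which the summed counts do not, and the part of either in this gap was not tested.

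**Figure D2:**
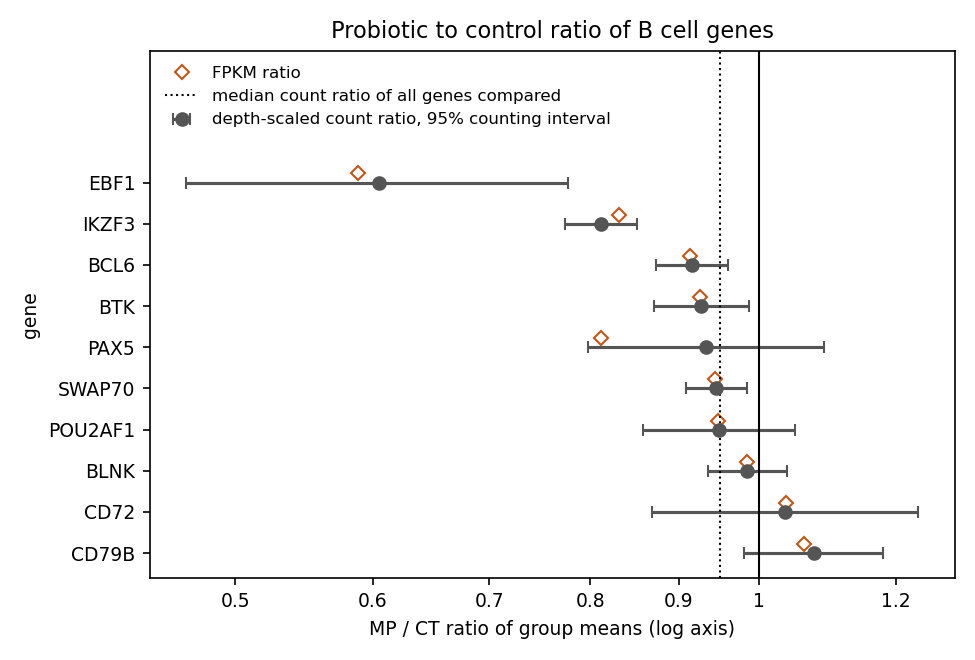
Ratio of MP to CT for each B cell gene (log axis), as the depth-scaled count ratio with its exact 95% counting interval (circles) and as the FPKM ratio (diamonds). The dotted line is the median count ratio of all genes compared, 0.950. The EBF1 (0.605) and IKZF3 (0.812) intervals lie wholly below it, and the CD79B interval (ratio 1.08) lies wholly above it. The PAX5 diamond (0.811) lies well left of its circle (0.933).

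The 10 genes kept nearly the same order of level in both groups. The highest 4, IKZF3, BCL6, SWAP70 and BLNK, lay between FPKM 24.1 and 30.2 in CT, followed by BTK, CD79B, POU2AF1, CD72, PAX5 and EBF1. In MP only IKZF3 and BCL6 changed places, with BCL6 at 26.0 and IKZF3 at 25.1. Whether neighbours in this order differ beyond the spread between birds was not tested, since no such spread is available. The lineage genes CD79B, PAX5 and EBF1 were low beside the T cell receptor gene CD3E. CD3E had FPKM 245.6 in CT and 216 in MP, which was 28.9 times the CD79B level in CT and 23.9 times in MP. Most other T cell markers also lay above CD79B in CT, such as CD4 at 15.3, TRAT1 at 16.2, CD8A at 31.5 and CD3D at 261. Only CD28 at 5.60, GATA3 at 5.77 and UBASH3A at 5.23 lay below CD79B. FPKM of different genes does not measure numbers of cells. The B cell label thus rests on genes at low level for its most lineage-restricted members, whereas members at higher level are shared with other cells. CD79A, a further defining gene, was not analysed here.

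The other genes of the pathway are read against all genes compared. Of these, 62.2% were lower, 11.2% lower by at least 0.32 and 8.49% higher by at least 0.32. Of 25 measured genes of proximal receptor signalling, 18 were lower and 7 higher, with a median of -0.14 in log2; 4 passed the 0.32 threshold, all lower. PIK3CD, the leukocyte catalytic subunit of phosphoinositide 3-kinase, had FPKM 24.3 in CT and 17.0 in MP (-0.49). LCP2, the T cell and myeloid relative of BLNK, had 35.8 and 28.2 (-0.34). SOS1, an activator of Ras, lay at -0.33, and the adaptor gene DAPP1 at -0.32.

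Enzymes that act beside BTK lay on both sides of CT. SYK, which docks on the phosphorylated receptor chains, had FPKM 3.90 in CT and 2.99 in MP, with a depth-scaled ratio of 0.800 (0.691 to 0.926). PLCG2, the phospholipase that BTK activates, had 14.6 and 12.6, a count ratio of 0.868 (0.822 to 0.917). Src-family kinases start the signal, and 3 of them were chosen after their values were seen. BLK had FPKM 20.4 in CT and 22.3 in MP, whereas FYN, which T cells also use, had 29.6 and 23.9. LYN had 52.6 and 54.3, a difference of 0.05 that is smaller than the 0.06 by which equal FPKM totals would shift it.

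Among inhibitors of the receptor, 13 of 15 measured genes were lower (median -0.19), and 2 passed the threshold of 0.32. These were PAG1, an adaptor for the inhibitory kinase CSK (FPKM 10.8 in CT and 7.83 in MP), and UBASH3A, a suppressor of T cell receptor signalling (5.23 and 3.69). INPP5D, the lipid phosphatase SHIP1, lay at -0.24, and so did the adaptor gene DOK1. In the branches towards NF-kB, NFAT and MAP kinases, 19 of 22 genes were lower (median -0.17), 5 of them by at least 0.32. The 3 higher genes, named after their values were seen, were NFKB2, IKBKB and RELA at 0.14, 0.13 and 0.12. They belong to the NF-kB branch, in which other genes such as NFKB1, REL and CHUK lay at -0.12, -0.07 and -0.20. NFATC2 (12.5 in CT and 8.57 in MP) and NFATC1 (8.84 and 6.08), calcium-driven transcription factors, lay at -0.50 and -0.47. PPP3R1, the regulatory subunit of calcineurin, lay at -0.40. T cells use the NFAT genes and calcineurin as well.

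Of 22 other transcription factors of B cells, 17 were lower (median -0.14), and 1 passed 0.32 in each direction. ETS1, shared with T cells and endothelium, had FPKM 63.5 in CT and 46.1 in MP, while ID2, an inhibitor of E proteins, had 46.5 and 60.1. TCF12, an E protein, lay at -0.25, and XBP1, the secretory factor of plasma cells, at 0.28. Surface and survival genes were divided, 9 of 16 lower (median -0.12), a smaller share than that of all genes, with 1 lower and 3 higher past 0.32. Of these 3, TNFRSF13C reached FPKM 1 only in MP. CCR7, a receptor for homing to lymphoid tissue, had 19.5 in CT and 15.0 in MP, and IL7R and BCL2A1 lay at -0.27 and -0.30. CXCR4, a chemokine receptor of many leukocytes, had 13.5 and 17.7. TNFRSF13B, the receptor TACI for BAFF and APRIL, was named after its values were seen and had 3.48 and 4.70.

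The receptor that guides B cells into follicles and the receptor for the survival factor BAFF lay on opposite sides. CXCR5 had FPKM 3.23 in CT and 2.52 in MP, with a depth-scaled ratio of 0.781 (0.663 to 0.919). TNFRSF13C, the BAFF receptor, had 0.650 and 1.17, from only 25 and 41 counts, a ratio of 1.77 with the wide interval of 1.05 to 3.03. TNFRSF13C reached FPKM 1 only in MP, the group where it was higher, so its direction is not independent of that minimum. The TNFRSF13C value also rests on too few counts for its size to be read closely.

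Genes of germinal centres and antibody diversification were lower for 14 of 18 (median -0.16), beside 62.2% of all genes. In each direction 1 of the 18 passed 0.32, against 11.2% of all genes lower and 8.49% higher. UNG, a uracil glycosylase that takes part in antibody diversification, had FPKM 6.98 in CT and 5.53 in MP. S1PR2, a receptor that holds B cells in germinal centres, lay at -0.23, and the repair endonuclease gene APEX1 at 0.39. The lower gene past the threshold was MYBL1, a factor of germinal centre cells named after its value was seen, at -0.42.

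Plasma cell genes had 10 of 15 members lower (median -0.14), near the 62.2% of all genes, and 1 past 0.32, which was higher. This was JCHAIN, the joining chain of secreted IgA and IgM, with FPKM 687 in CT and 1298 in MP. DERL3, which clears misfolded secretory proteins, lay at 0.22, and the chaperone gene HSP90B1 at -0.20. PRDM1, the factor that shuts off PAX5 in plasma cells, was chosen after its values were seen and had 10.6 in CT and 9.54 in MP. JCHAIN was thus higher, as was XBP1 of the same list (0.28), while PAX5 (FPKM ratio 0.811, count ratio 0.933) and PRDM1 lay below CT and CD79B slightly above. The count intervals of PAX5 (0.798 to 1.09) and PRDM1 (0.840 to 0.979) hold 0.950, the median count ratio of all genes compared.

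**Figure D3:**
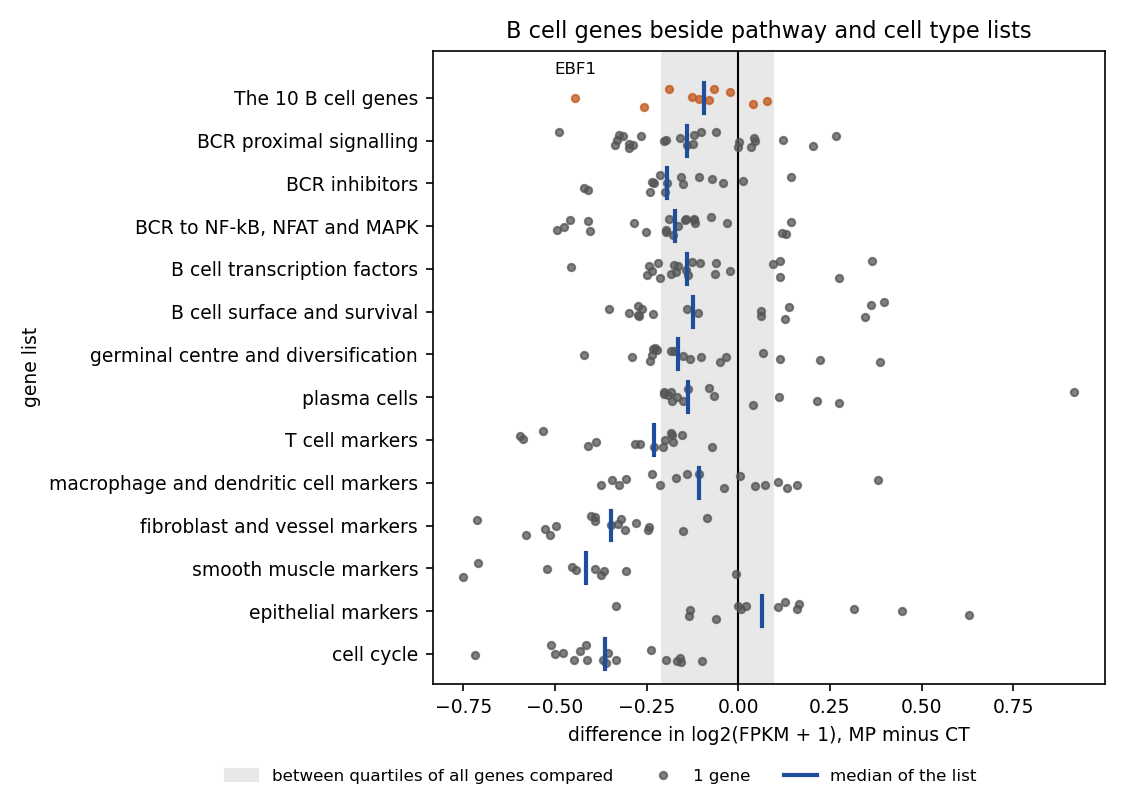
Difference in log2(FPKM + 1), MP minus CT, of each measured gene (points) in the 10 B cell genes and in 13 other lists, with the list median (blue bars) and the range between the quartiles of all genes compared (grey). The B cell genes lie around their median of -0.09, with EBF1 lowest at -0.44 on a scale that shrinks the difference of low genes; the fibroblast and vessel and smooth muscle medians are -0.35 and -0.42.

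Markers of other cell types of the ileum are read against the same shares of all genes compared. Of these, 62.2% were lower, 11.2% lower by at least 0.32 and 8.49% higher by at least 0.32. In bulk tissue, fewer cells of a type and less RNA per cell cannot be told apart. All 15 measured T cell markers were lower (median -0.23), and 14 were with median-of-ratios scaling; their summed FPKM was 762 in CT and 640 in MP, and CD4, TRAT1 and CD8A lay between -0.59 and -0.53. Macrophage and dendritic cell markers were lower for 10 of 17 (median -0.11), near the 62.2% of all genes, with summed FPKM of 904 and 922. CSF1R, the receptor for the growth factor of macrophages, had 40.8 in CT and 32.8 in MP, and TIMD4 and XCR1 lay at -0.37 and -0.33. Among the 7 higher markers, named after their values were seen, the scavenger receptor gene CD163 lay at 0.38 from low counts (ratio 1.44, 0.996 to 2.10), and the complement genes C1QC and C1QA at 0.16 and 0.13.

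Markers of connective tissue, vessels and muscle were lower throughout. All 17 fibroblast and vessel markers lay below CT (median -0.35; summed FPKM 1915 in CT and 1465 in MP), 10 of them by at least 0.32. PDGFRA, PDGFRB, COL1A1 and VIM lay at -0.58, -0.53, -0.51 and -0.71, on the same side as EBF1. By depth-scaled counts, which no pseudocount shrinks, the lowest ratios of this list were 0.610 for VIM and 0.657 for PDGFRA. The highest were 0.892 for KDR and 0.940 for LUM, and EBF1 had 0.605. With no pseudocount the medians of the fibroblast and vessel and the smooth muscle lists were -0.38 and -0.42, beside -0.77 for EBF1. All 10 smooth muscle markers were lower, 9 with median-of-ratios scaling (median -0.42; summed FPKM 3733 and 2561), with CNN1, ACTG2, DES and SYNPO2 between -0.75 and -0.45 and MYH11 at -0.39. The part of these cells in the EBF1 difference was not tested.

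Epithelial markers were lower for 5 of 14 (median 0.07; summed FPKM 3826 in CT and 4177 in MP). With equal FPKM totals 7 of 14 were lower (median 0.007), and with median-of-ratios scaling 3 of 14 were (median 0.14). EPCAM, present on all gut epithelium, had 1016 in CT and 1032 in MP, whereas ELF3, KRT20, VIL1 and CDX1 lay between 0.17 and 0.63. KRT19, named after its value was seen, was the 1 epithelial marker lower by at least 0.32 (FPKM 1.29 in CT and 0.817 in MP). KRT19 reached FPKM 1 only in CT, the group where it was higher, so its direction is not independent of that minimum. Its counts over the 3 libraries were low, 115 in CT and 71 in MP. All 18 measured cell cycle genes were lower (median -0.36; summed FPKM 395 and 310), with RRM2, TOP2A, KIF11 and CCNA2 between -0.72 and -0.48. The part of T cells and of dividing cells in the IKZF3 difference was not tested.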

How the data were processed

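RNA sequencing of ileum was deposited by the authors as 1 table of group means, with FPKM values and estimated counts per gene, per the file headers. All values (100.0%) have a last decimal of 0, 3 or 7, the pattern left by averaging 3 libraries, and times 3 the counts are whole for 89.9% of genes in CT and 90.2% in MP (within 0.002). Both counts were whole for all 10 members. Tools in the submitters' processing notes are HISAT2, Bowtie2, StringTie 1.3.1, fastp 0.18.0 and DESeq2, listed without a role. The labels describe the library kit as one for small RNA. The genome build was not given in the sources used here. 4 further columns of values belong to no sample of the series and were not used.

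Differences are log2(FPKM + 1), MP minus CT, which understates those of low genes, for the 12828 genes that reached FPKM 1 in CT or MP. Thresholds were 0.32 in log2 (a ratio of 5 to 4) and 1.5-fold. Mean counts were multiplied by 3 and rounded; ratios were divided by the depth ratio of 0.929. The design's count test needs libraries and was not run. The steps were tested on simulated data that held counting error only, so that test does not cover variation between birds. The members and lists were chosen with earlier results of these data known. Named are all 10 members, up to 4 genes per list with the largest difference at FPKM of at least 5, and marker genes set with the lists; MKI67, set with them, was not analysed here. Members were left out of the 13 lists, and some lists share genes. Alternatives were other scalings, pseudocounts, minimum values and leaving out members. Python 3.11.15, numpy 2.4.6, pandas 2.3.3 and scipy 1.17.1 were used. Some single genes that the naming rule would take are not reported here. No sequences are shown.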

Additional observations from a re-analysis of the deposited data

How the results depend on the processing

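No paired analysis was possible because each group is 1 column of means with no replicate number, and for the same reason leaving out libraries was not run. Equal FPKM totals and the omission of the pseudocount were chosen after seeing the data. Of the 10 genes, between 6 (median-of-ratios scaling, where BLNK and POU2AF1 turned higher) and 9 (equal FPKM totals) were lower; at a minimum FPKM of 5, 6 of the remaining 7 were. The share of all genes lower ranged from 49.98% to 69.9% under the same scalings. Members lower by at least 0.32 in log2 numbered 0 with a pseudocount of 5, beside 4.21% of all genes. At a minimum FPKM of 5, which leaves out EBF1, they numbered 0, beside 9.58% of all genes. The median of the 10 genes ranged from -0.15 to -0.02, and from -0.11 to -0.08 without any 1 member. Of 70 recomputed member differences, 67 moved by no more than the counting interval of the gene itself, which is wide for low genes. The 67 include EBF1 at -0.17 (pseudocount 5) and -0.77 (no pseudocount) and the sign changes of BLNK, POU2AF1 and CD72. BCL6, IKZF3 and SWAP70 moved by more than their intervals with median-of-ratios scaling (-0.05, -0.18 and -0.005). Summing repeated rows could change none, since each symbol had 1 row. Of the 13 list medians, 12 were below 0 in every alternative. Low counts limit EBF1, CD72 and PAX5.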
